A study of Mus musculus with 12 samples.

Results

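Betacellulin, neuregulin 1 and their relatives, 10 genes of the epidermal growth factor (EGF) family and its receptors, were followed across 12 libraries of mouse dorsal root ganglia. They are the ligand genes Btc, Nrg1, Hbegf, Areg, Ereg and Tgfa and the receptor genes Egfr, Erbb2, Erbb3 and Erbb4, picked by name from a table of 54532 genes. The family was chosen with the differences between these same libraries already known, that of Btc among them. The differences between DAAO and control libraries given for the 10 genes are therefore a description, and their adjusted p-values are the output of the fit over all genes, not independent evidence about the family. No p-value is given for Btc.

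Dorsal root ganglia hold the cell bodies of sensory neurons with their glia, vessels and connective tissue. All mice were C57BL/6 and received D-alanine. The 6 control libraries are labelled CDH5-Cre, and the 6 DAAO libraries are labelled DAAO-TGCdh5. Cdh5 encodes vascular endothelial cadherin, so its promoter directs Cre recombinase to endothelial cells, and D-amino acid oxidase (DAAO) makes hydrogen peroxide from D-alanine. Age and sex are not given in the labels. The genotype label of the DAAO libraries does not name Cre, which stands in their sample names. Whether each library came from 1 animal is not stated, so the p-values rest on a spread between libraries that may be partly technical.

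EGF family ligands are made as membrane proteins and are released by proteases. Betacellulin, amphiregulin and transforming growth factor alpha bind the EGF receptor. Heparin-binding EGF and betacellulin bind both the EGF receptor and ErbB4, and neuregulin 1 binds ErbB3 and ErbB4. ErbB2 has no known ligand and signals as a partner of the others, and ErbB3 has little kinase activity of its own. In peripheral nerve, neuregulin 1 on axons acts on ErbB2 and ErbB3 of Schwann cells and sets their survival and myelin thickness. Betacellulin is known as a product of Schwann cells after nerve injury.

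Btc lies on chromosome 5 in a row of EGF family genes. On build GRCm38 of the table, Epgn (epithelial mitogen) spans 91027464 to 91035215, Ereg (epiregulin) 91074622 to 91093646, Areg (amphiregulin) 91139599 to 91148432 and Btc 91357261 to 91402994, the last on the minus strand. Counts in this row were unequal. Over the 6 control and the 6 DAAO libraries Btc had 111 and 2457 counts, Areg had 54 and 35, Epgn had 2 and 6 and Ereg had 0 and 0. The nearest genes outside this row, one on each side, were well covered and close to equal. Mthfd2l, an enzyme of folate metabolism, had a log2 fold change of 0.04 and Parm1 one of -0.12 (edgeR adjusted p = 0.982 and 0.945). The 250 bases before the start of Btc and of Areg are shown to set the member with the largest difference beside the nearest family gene that has counts. They are RefSeq promoters on GRCm38.p6, read 5′ to 3′ on each gene's own strand, Btc from chr5:91402995-91403244 (minus strand) and Areg from chr5:91139349-91139598 (plus strand). Capitals mark matches to a TATA box (TATAAA), a cyclic AMP response element (TGACGTCA), an AP-1 site (TGANTCA) or a RUNX site (TGTGGT) on either strand, and matches do not overlap.
Btc: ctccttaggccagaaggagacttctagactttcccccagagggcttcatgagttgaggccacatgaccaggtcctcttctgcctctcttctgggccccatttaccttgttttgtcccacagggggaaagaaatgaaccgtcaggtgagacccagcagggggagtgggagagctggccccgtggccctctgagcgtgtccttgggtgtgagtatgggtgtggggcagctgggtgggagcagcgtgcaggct
Areg: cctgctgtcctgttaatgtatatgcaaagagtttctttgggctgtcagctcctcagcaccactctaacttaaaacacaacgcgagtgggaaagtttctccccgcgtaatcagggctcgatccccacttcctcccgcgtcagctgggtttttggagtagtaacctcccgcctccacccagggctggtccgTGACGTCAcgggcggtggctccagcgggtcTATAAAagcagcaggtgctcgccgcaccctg
Areg had the cyclic AMP response element 61 bases and the TATA box 31 bases before its start, and Btc had none of these 4 motifs in the window. Among 32851 promoter windows of the same length, 1.55% held the response element, 12.4% the TATA box, 6.75% the AP-1 letters and 14% the RUNX letters. Of the 10 genes 6 were in the promoter table. A match is a string of letters, not a site shown to be bound.

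Each library held between 13227518 and 23884927 counts. Levels are given as CPM, counts relative to the library total after TMM scaling, and 17002 genes were tested. Several libraries stood apart from the rest. Control 2 and control 6 had the highest share of mitochondrial counts (7.44% and 7.65%, against 3.32% to 5.13% elsewhere), and control 2 also had the highest summed oligodendrocyte markers, a list for spinal cord tissue (8 genes, 597.5 to 5672 CPM in controls and 944 to 2101 in DAAO). Skeletal muscle markers ranged from 14.0 to 2798 CPM in controls and from 6.15 to 464 in DAAO. In 5 libraries (controls 1 and 2, DAAO 1, 2 and 6) Xist and Y-linked transcripts were both above 10 CPM. The 10 pan-neuronal markers of the ganglion summed to between 9397 and 14310 CPM in controls and between 7447 and 12230 in DAAO. The 8 endothelial markers summed to 134.8 to 185.5 and 112.3 to 218 CPM, and none passed by edgeR (1 at an unadjusted p under 0.05, 0 by DESeq2 and 0 by limma-voom).

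Of the 10 genes 8 had enough counts to be tested; Areg and Ereg did not. In edgeR's quasi-likelihood test with Benjamini-Hochberg adjustment at 0.05, 1 of the 8 passed, Btc, against 0.753% of all genes (128 of 17002; 0.506% higher and 0.247% lower in DAAO). The choice of the family used this contrast, and nothing is read from that count. Without single libraries the count over all genes ranged from 61 to 322. The median log2 fold change of the 8 tested genes was 0.27, against 0.00 over all genes, with 5 positive and 3 negative. Btc was also the only member whose groups did not overlap. Of all genes 1.45% had groups without overlap, 0.918% higher and 0.529% lower in DAAO. An unadjusted p under 0.05 was reached by 4 of the 8 (Btc, Nrg1, Erbb2 and Erbb3) and by 10.3% of all genes.

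**Figure D1:**
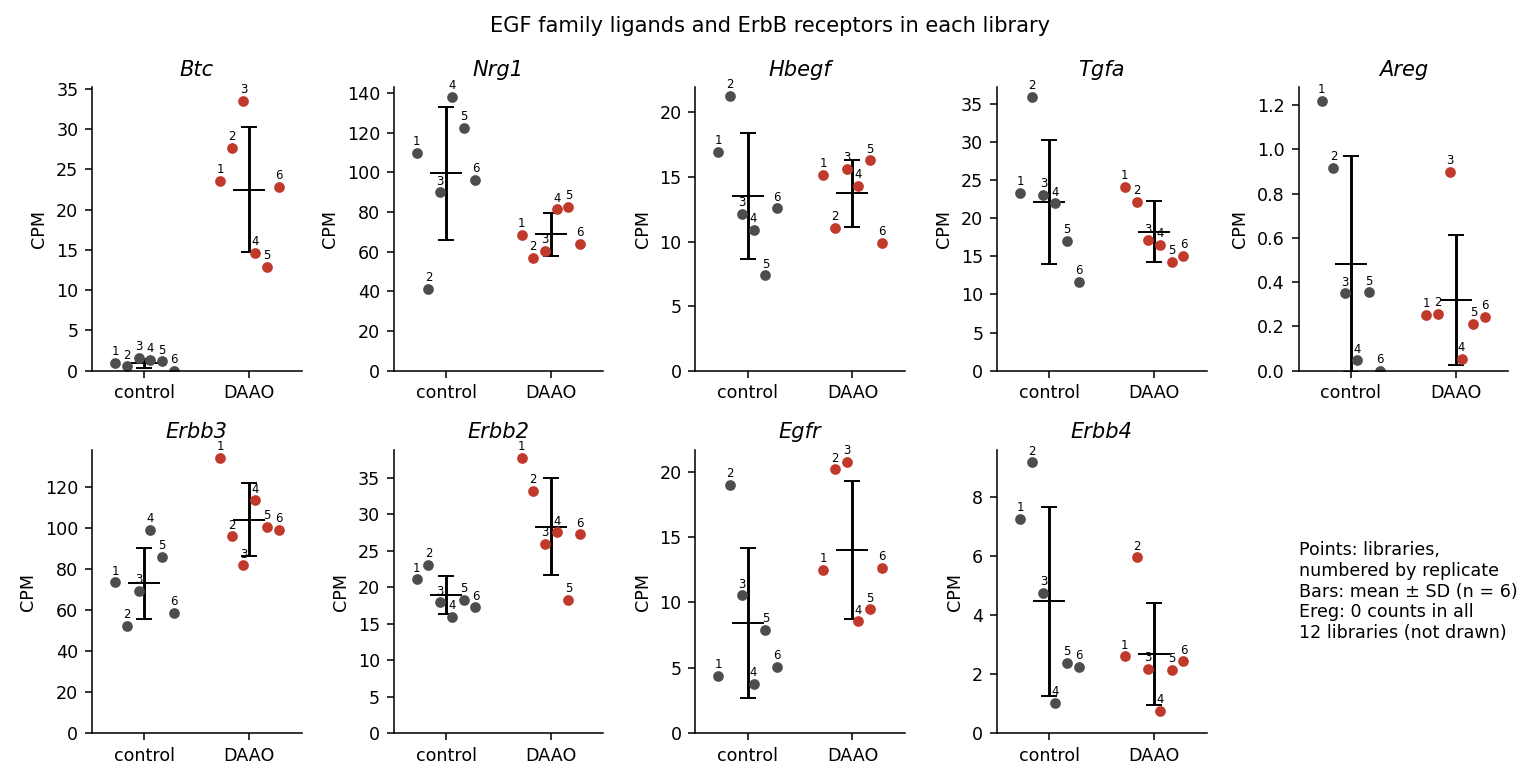
CPM of 9 genes in each library (points, labelled by replicate number; linear axis from 0), with mean and SD for 6 control and 6 DAAO libraries. Btc separates the groups, the DAAO points of Erbb2 and Erbb3 lie mostly in the upper part of the joint range, and control 2 is the lowest control for Nrg1 and Erbb3 and the highest for Hbegf, Tgfa, Egfr, Erbb2 and Erbb4.

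Btc, which encodes betacellulin (ENSMUSG00000082361), was close to absent from the control ganglia and present in every DAAO library. Its level was 0.998, 0.539, 1.55, 1.36, 1.16 and 0 CPM in controls 1 to 6, and 23.6, 27.7, 33.5, 14.6, 12.9 and 22.8 CPM in DAAO 1 to 6. The lowest DAAO library lay above the highest control library. Control 6 had no Btc count among 13227518, which allows up to 0.240 CPM at 3 counts. The group means were 0.934 ± 0.573 and 22.5 ± 7.81 CPM (SD, n = 6), a log2 fold change of 4.54 ± 0.46 (SE), or 23.2-fold. It stayed between 4.14 and 4.71 over all 25 alternative settings. Without the 5 libraries that carried both Xist and Y-linked transcripts it was 4.26 ± 0.72, from 4 control and 3 DAAO libraries, and did not pass there, where 4 genes in all did. In whole ganglia more cells with the transcript and more transcript per cell cannot be told apart.

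Within the DAAO group Btc was lowest in DAAO 4 and DAAO 5 and highest in DAAO 3. Several marker lists, but not all, had the same libraries at their ends. The mean centred log2 level of macrophage markers was -0.08 and 0.25 in DAAO 4 and DAAO 5, the lowest of the group, and 1.87 in DAAO 3, the highest. Repair Schwann cell markers, a list without Btc, were also lowest in DAAO 4 and DAAO 5 (0.34 and 0.11), but highest in DAAO 1 (0.91). That list holds Olig1 and Gfap, which ranged widely, from 0.40 to 94.1 and from 2.39 to 592 CPM in controls. In DAAO they ranged from 12.9 to 58.2 and from 47.1 to 501 CPM, and their part in the order of the libraries was not tested. Fibroblast and nerve sheath markers (-0.18 and -0.32) and oligodendrocyte markers (-0.75 and -0.85) were lowest in DAAO 4 and DAAO 5 too, and pan-neuronal markers were highest there (0.22 and 0.22). Skeletal muscle markers were lowest in DAAO 4 (-3.97) and highest in DAAO 3 (2.40). Endothelial markers were lowest in DAAO 3 (-0.45) and highest in DAAO 1 (0.52). Schwann lineage markers were highest in DAAO 1 (0.31), with 0.16 in DAAO 4 and -0.13 in DAAO 5. The 12 macrophage markers summed to 59.0 to 329 CPM in controls and 220 to 920 in DAAO. Of them 3 rose by edgeR (Gpnmb, Mmp12 and Clec4d), against 4 by DESeq2 and 1 by limma-voom. The 12 repair Schwann cell markers summed to 1350 to 1637 and 1675 to 2117 CPM, and 3 rose (Sox2, Runx2 and Jun). Of all genes 0.506% rose. Of the 12 markers 10 had positive and 2 negative log2 fold changes, Shh (-0.51) and Ncam1 (-0.11). Ngfr and L1cam held much of the sum, with means of 537 and 449 CPM in controls. The 6 Schwann lineage markers summed to 1499 to 5028 and 1763 to 2456 CPM, with Foxd3 higher and S100b lower among them. No marker of these lists was at 0 in all libraries. With a marker level as a term the log2 fold change of Btc was 4.68 (Schwann lineage), 4.47 (oligodendrocyte) and 4.29 (fibroblast and nerve sheath). The macrophage and repair Schwann cell levels were not entered as terms. Otherwise the part of these lists in the level of Btc was not tested.

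The genes whose log2 CPM over the 12 libraries was most like that of Btc, by Pearson correlation among 13220 named genes, were Ucn2, the peptide urocortin 2 (r = 0.945), Slamf7, a receptor of immune cells (0.942), Gas7 (0.941), Serinc5 (0.941) and Slc37a2, a sugar phosphate transporter (0.937). Both groups enter this measure, so a gene with the same group difference ranks high. Of these 5 genes 4 passed over all genes by edgeR, and Slc37a2, at 3.75 ± 1.53 and 7.63 ± 1.01 CPM, did not (adjusted p = 0.140). On deviations from the group means the 5 closest were different genes, Tmppe, Uprt, Supt16, Zfp526 and Rgl1 (r from 0.952 to 0.963), and their log2 fold changes between the groups lay between -0.25 and 0.46. In log2 CPM control 6, with no Btc count, stood at -3.21 against -0.63 to 0.73 in the other controls. These correlations describe 12 libraries and carry no test.

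Nrg1, which encodes neuregulin 1 (ENSMUSG00000062991; chromosome 8, 31814551 to 32884029), was the most abundant of the ligand transcripts in both groups and tended to lower values in DAAO. It stood at 110, 41.1, 89.9, 138, 122 and 96.3 CPM in controls 1 to 6 and at 68.4, 56.8, 60.2, 81.4, 82.6 and 63.9 CPM in DAAO 1 to 6. Every DAAO library was below 5 of the 6 controls, and control 2 was below all of them. The means were 99.6 ± 33.6 and 68.9 ± 10.8 CPM (SD, n = 6), with a log2 fold change of -0.53 ± 0.21 (SE) that did not pass (edgeR adjusted p = 0.387). Without control 2 it was -0.69 ± 0.13 and passed (adjusted p = 0.0130), as it did without controls 2 and 6 (-0.74, adjusted p = 0.00731) and without controls 2, 4 and 6 (-0.62, adjusted p = 0.0365). With a marker level as a term it was smaller, -0.40 with oligodendrocyte, -0.30 with Schwann lineage and -0.20 with fibroblast and nerve sheath markers (adjusted p = 0.289, 0.418 and 0.681). Neurons of the ganglion make neuregulin 1, and among pan-neuronal markers 1 of 10 fell, Snap25, with a list median of -0.13. Of the 6 proprioceptor markers, a class of sensory neurons, 4 fell (Runx3, Etv1, Whrn and Esrrg), with a list median of -1.18 and sums of 411 to 957 CPM in controls and 256 to 393 in DAAO. Among controls their mean centred log2 level was highest in control 4 and control 5 (1.29 and 0.76) and lowest in control 2 (0.12), the libraries with the most and the least Nrg1. Among DAAO libraries this order did not hold. There the level was highest in DAAO 3 and DAAO 2 (-0.28 and -0.49), which had the least Nrg1 of that group. The part of these neurons in the level of Nrg1 was not tested. Counts per gene do not separate the isoforms of Nrg1.

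Hbegf and Tgfa did not pass in any of the 25 alternatives. Hbegf, the heparin-binding ligand (ENSMUSG00000024486; chromosome 18, 36504929 to 36515805), ranged from 7.38 to 21.3 CPM in controls (median 12.4) and from 9.92 to 16.3 in DAAO (median 14.7). Its log2 fold change of 0.02 ± 0.23 (edgeR adjusted p = 0.993) changed sign in 9 of 25 alternatives, and was 0.52 ± 0.25 without the 5 libraries with Xist and Y-linked transcripts. Tgfa, transforming growth factor alpha (ENSMUSG00000029999; chromosome 6, 86195223 to 86275719), ranged from 11.6 to 35.98 CPM (median 22.5) and from 14.3 to 24.1 (median 16.8). Its log2 fold change was -0.29 ± 0.22 (edgeR adjusted p = 0.745), and -0.09 without control 2, its highest library. The control range of both genes contains the whole DAAO range.

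Areg and Ereg were at the edge of detection or below it. Areg had between 0 and 22 counts a library, or at most 1.22 CPM in controls and 0.897 in DAAO. Its highest values were those of control 1, control 2 and DAAO 3, and the groups overlapped. Ereg had 0 counts in all 12 libraries, which allows up to 0.126 to 0.240 CPM a library at 3 counts. These floors cover counting error alone.

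The receptors Erbb3 and Erbb2 were higher in most DAAO libraries, by about the same factor, without passing over all genes. Erbb3, the neuregulin receptor of Schwann cells and satellite glia (ENSMUSG00000018166; chromosome 10, 128567523 to 128589652), stood at 73.4, 52.2, 69.2, 99.0, 85.8 and 58.5 CPM in controls 1 to 6 and at 134, 95.8, 81.7, 113, 100.4 and 98.9 CPM in DAAO 1 to 6. All 6 DAAO libraries were above the control median and 3 were above the highest control, control 4. Its log2 fold change was 0.51 ± 0.16 (SE; edgeR adjusted p = 0.191), or 1.42-fold, and lay between 0.34 and 0.67 over the 25 alternatives, none of which passed.

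Erbb2, the shared partner receptor (ENSMUSG00000062312; chromosome 11, 98412470 to 98437716), stood at 21.1, 23.0, 17.9, 15.96, 18.2 and 17.2 CPM in controls 1 to 6 and at 37.7, 33.1, 26.0, 27.5, 18.3 and 27.2 CPM in DAAO 1 to 6. Of the DAAO libraries 5 were above the highest control, and DAAO 5 lay among the controls. The log2 fold change was 0.58 ± 0.17 (SE; edgeR adjusted p = 0.1502), or 1.4955-fold. Without DAAO 5 it was 0.68 and passed (adjusted p = 0.0488). Erbb2 overlaps Mien1, a gene of the opposite strand with a log2 fold change of -0.08 (edgeR adjusted p = 0.968). The sources used here do not give the strand setting of the counting, so reads of the overlap may belong to either gene. With the Schwann lineage level as a term, the log2 fold changes were 0.59 for Erbb3 and 0.51 for Erbb2 (adjusted p = 0.0771 and 0.143). The Schwann lineage list had a median of -0.13 and the 10 myelinating Schwann cell markers one of -0.49, all negative and none past the threshold by edgeR (6 at an unadjusted p under 0.05, 1 by DESeq2 and 0 by limma-voom). The 6 satellite glia markers summed to 2235 to 4745 CPM in controls and 4208 to 6299 in DAAO, with none past the threshold by edgeR (4 at an unadjusted p under 0.05, 2 by DESeq2 and 3 by limma-voom), and their part in the level of Erbb3 was not tested.

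Egfr and Erbb4 were scarce and varied several fold between libraries of 1 group. Egfr, the receptor of betacellulin and EGF (ENSMUSG00000020122; chromosome 11, 16752203 to 16918158), stood at 4.38, 19.0, 10.5, 3.79, 7.88 and 5.05 CPM in controls 1 to 6 and at 12.5, 20.2, 20.8, 8.55, 9.46 and 12.7 CPM in DAAO 1 to 6. Control 2 was below only DAAO 2 and DAAO 3, and the other controls were at or below 10.5 CPM. The log2 fold change was 0.73 ± 0.37 (edgeR adjusted p = 0.530), and 1.15 ± 0.31 without control 2 (adjusted p = 0.0679). With the fibroblast and nerve sheath level as a term it was 0.28 ± 0.20 (adjusted p = 0.595). That level was highest in control 2 (0.65) among controls and in DAAO 2 and DAAO 3 (0.67 and 0.62), the libraries with the most Egfr. The 9 markers of that list summed to 812.5 to 3702 CPM in controls and 1760 to 3869 in DAAO, with a median log2 fold change of 0.46 and none past the threshold by edgeR (1 at an unadjusted p under 0.05, 0 by DESeq2 and 0 by limma-voom).

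Erbb4, a receptor of neuregulins and betacellulin (ENSMUSG00000062209; chromosome 1, 68032186 to 69108059), stood at 7.26, 9.17, 4.74, 1.03, 2.37 and 2.24 CPM in controls 1 to 6 and at 2.60, 5.95, 2.19, 0.762, 2.15 and 2.44 CPM in DAAO 1 to 6. The groups overlapped over most of their range. The log2 fold change was -0.74 ± 0.52 (edgeR adjusted p = 0.694), and -0.39 without control 2. The oligodendrocyte marker level was highest in control 2 and lowest in control 4 (2.30 and -2.54), the libraries with the most and the least Erbb4 among controls. With that level as a term the log2 fold change of Erbb4 was -0.75 ± 0.34 (adjusted p = 0.398).

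**Figure D2:**
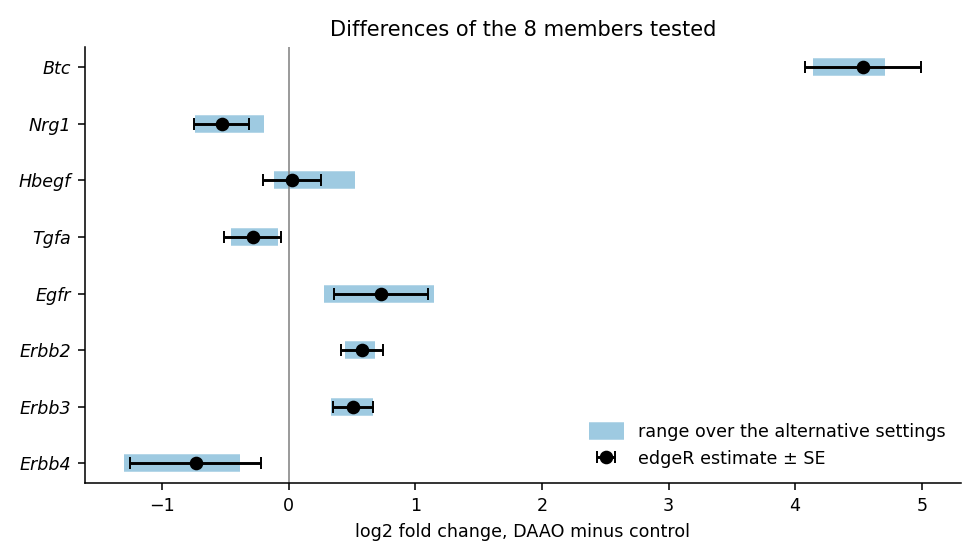
Log2 fold change (DAAO minus control) of the 8 tested genes, as edgeR estimate with SE (points and whiskers) over the range of 25 alternative settings (bars). Btc stays between 4.14 and 4.71, and Erbb2, Erbb3 and Egfr stay above 0. Nrg1, Tgfa and Erbb4 stay below 0, and Hbegf spans 0.

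Levels of different genes were compared as CPM per kilobase of the gene length in the table. In controls the order was Erbb3 (12.1 ± 2.88), Nrg1 (9.62 ± 3.24), Hbegf (5.70 ± 2.05), Erbb2 (3.63 ± 0.505), Tgfa (3.41 ± 1.25), Egfr (0.745 ± 0.508), Areg (0.396 ± 0.401), Erbb4 (0.362 ± 0.259) and Btc (0.207 ± 0.127; CPM per kilobase, SD, n = 6). Apart from Tgfa and Egfr, neighbours in this order had overlapping ranges of mean ± SD. In DAAO Btc stood in the fifth place with 4.98 ± 1.73 CPM per kilobase, after Erbb3 (17.3 ± 2.95), Nrg1 (6.65 ± 1.05), Hbegf (5.79 ± 1.10) and Erbb2 (5.43 ± 1.27), and before Tgfa (2.81 ± 0.617). From Nrg1 to Tgfa, neighbours in the DAAO order had overlapping ranges of mean ± SD, while Erbb3 was above Nrg1 beyond them. Egfr followed with 1.24 ± 0.464, then Areg with 0.263 ± 0.241 and Erbb4 with 0.217 ± 0.140 CPM per kilobase.

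**Figure D3:**
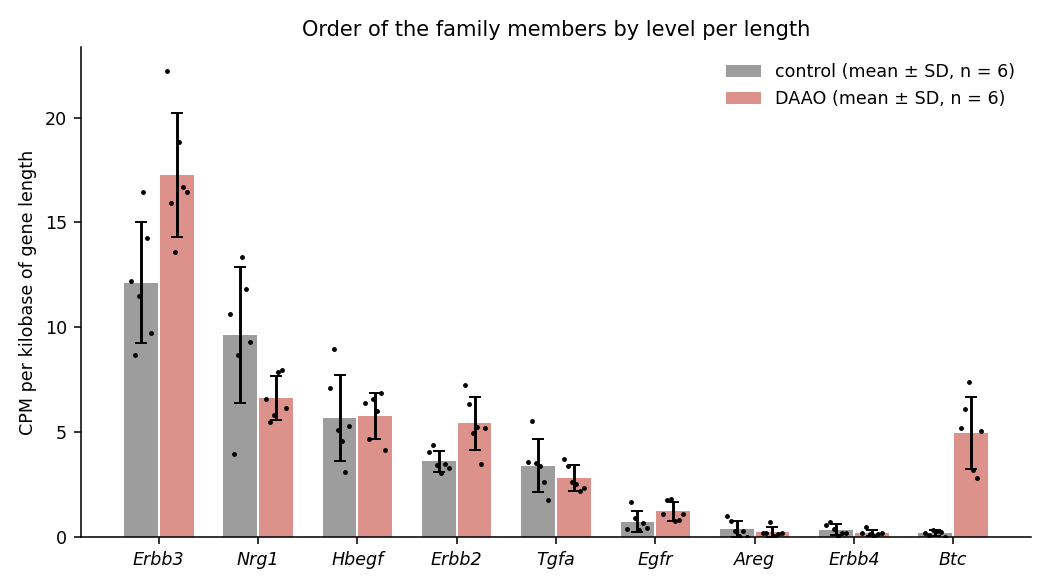
Level per length of 9 genes (CPM per kilobase, linear axis from 0; bars are means, whiskers SD cut at 0, points libraries, n = 6 per group), ordered by the control mean. Erbb3 leads in both groups, and Btc moves from the lowest place in controls to 4.98 in DAAO.

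The summed transcripts of the 6 ligand genes among the 10 overlapped between the groups, while the share of Btc in that sum did not. They came to 19.3 ± 2.36 CPM per kilobase in controls and 20.5 ± 1.89 in DAAO (SD, n = 6), with ranges of 16.4 to 22.6 and 17.9 to 23.2. Other ligands of the family are not in the sum, among them Nrg2 and Nrg3. Nrg2 stood at 4.68 ± 2.22 CPM per kilobase in controls and 5.14 ± 1.38 in DAAO, and Nrg3 at 3.81 ± 1.46 and 3.49 ± 0.460. Btc made up 1.05% ± 0.675 of the sum over the 6 genes in controls and 24.2% ± 7.49 in DAAO. In DAAO its share ran from 14.2% in DAAO 5 to 32.0% in DAAO 3. Nrg1 made up 49.9% ± 16.1 and 32.8% ± 6.28. In DAAO 2 and DAAO 3 the share of Btc (30.7% and 32.0%) was above that of Nrg1 (27.6% and 25.1%). That order rests on the gene lengths used. In CPM, Nrg1 was above Btc in both libraries (56.8 against 27.7 and 60.2 against 33.5). Of the ligand sum Hbegf held 29.5% ± 10.2 and 28.1% ± 4.21, and Tgfa 17.6% ± 6.13 and 13.7% ± 2.67.

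The receptor transcripts had a higher sum in every DAAO library, with Erbb3 the main part in both groups. The 4 receptor genes summed to 16.9 ± 2.25 CPM per kilobase in controls (13.7 to 19.9) and 24.2 ± 3.68 in DAAO (20.6 to 30.8), and these ranges did not overlap. Erbb3 made up 71.3% ± 8.83 and 71.5% ± 5.35 of the receptor sum and Erbb2 21.9% ± 4.57 and 22.4% ± 3.26. Egfr and Erbb4 made up 4.57% ± 3.36 and 2.22% ± 1.64 in controls and 5.26% ± 2.32 and 0.905% ± 0.568 in DAAO. These sums are over genes chosen with results known and were not tested.

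**Figure D4:**
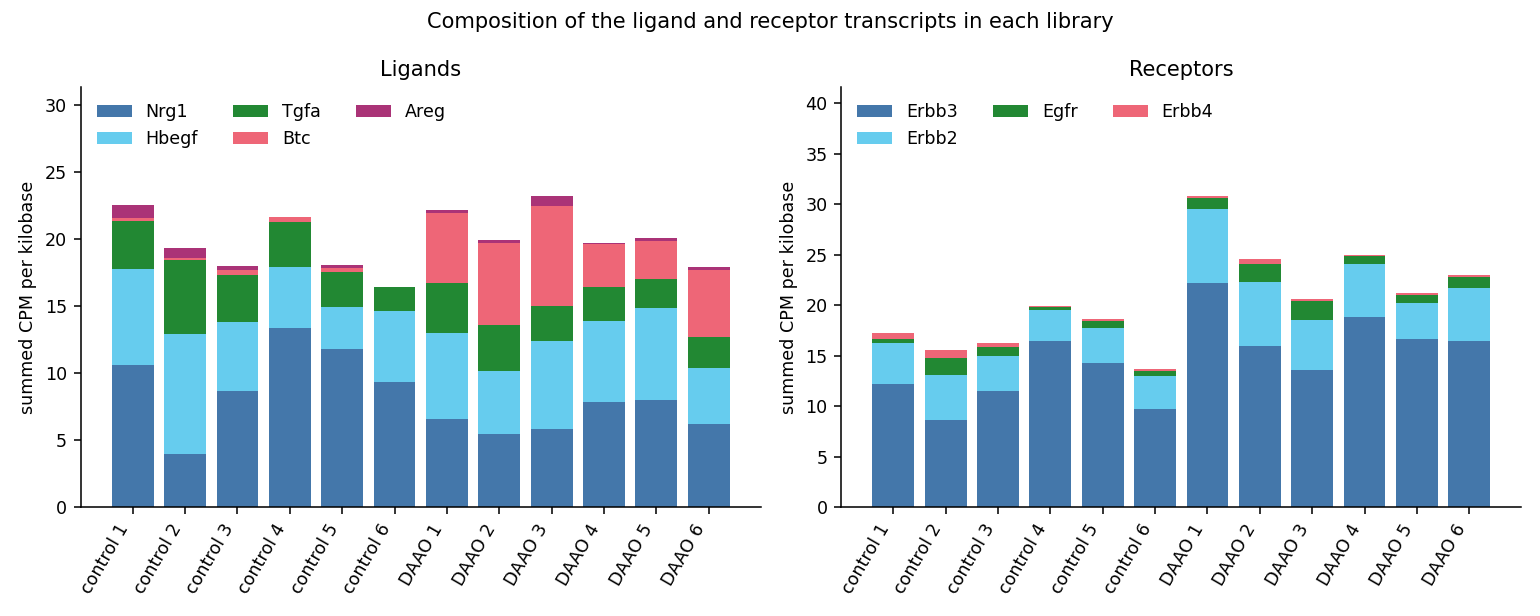
Summed CPM per kilobase of the ligand genes (left) and receptor genes (right) in each of the 12 libraries, stacked by gene (linear axis from 0). Btc takes 14.2% to 32.0% of the ligand sum in the DAAO libraries, and the receptor sum is at least 20.6 in DAAO and at most 19.9 in controls.

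The rest of the pathway was read from 5 lists of genes by role, 59 genes of which 58 were tested. One of the 58 rose and none fell by edgeR's quasi-likelihood test over all genes, against 0.753% of all genes. It was Rhbdf1, which encodes iRhom1, a carrier of the shedding protease ADAM17. Rhbdf1 rose from 24.5 ± 5.80 to 46.3 ± 5.50 CPM (SD, n = 6), a log2 fold change of 0.92 ± 0.15 (SE; edgeR adjusted p = 0.00722), with no overlap of the groups and a pass in 24 of 25 alternatives. The exception was the fit without the 5 libraries with Xist and Y-linked transcripts (0.86, adjusted p = 0.332). Of the other 6 genes of shedding none passed. The sheddases Adam10 and Adam17 had log2 fold changes of -0.19 and 0.22, and Rhbdf2, the related carrier, 0.23 (edgeR adjusted p = 0.542, 0.635 and 0.812).

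Other EGF family ligands did not stand apart between the groups. Epgn was too scarce to test, and none of Egf, Nrg2, Nrg3 and Nrg4 passed by edgeR (0 at an unadjusted p under 0.05, 0 by DESeq2 and 0 by limma-voom). Nrg3, a neuregulin of neurons, stood at 26.0 ± 9.93 and 23.8 ± 3.14 CPM, Nrg2 at 14.4 ± 6.85 and 15.8 ± 4.24, and Nrg4 at 1.66 ± 0.641 and 1.99 ± 1.19. The list median was 0.02 on the log2 scale.

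Genes that hold the receptors in check had a median log2 fold change of 0.05 over 10 genes. None passed by edgeR (1 at an unadjusted p under 0.05, 0 by DESeq2 and 0 by limma-voom). Ptpn1, a tyrosine phosphatase, had 0.36 ± 0.12, Errfi1, an inhibitor of the EGF receptor kinase, -0.31 ± 0.17, and Cblb, a ubiquitin ligase, 0.22 ± 0.14 (SE; edgeR adjusted p = 0.225, 0.576 and 0.629). Adaptors and relays had a median of 0.00 over 21 genes, and none passed by edgeR (3 at an unadjusted p under 0.05, 1 by DESeq2, Pik3ca, and 0 by limma-voom). Pik3ca, a catalytic subunit of phosphoinositide 3-kinase, stood at 97.6 ± 6.59 and 78.5 ± 5.54 CPM without overlap of the groups (-0.31 ± 0.10 SE, edgeR adjusted p = 0.184). The adaptor Gab1 had 0.33 ± 0.12 (SE; edgeR adjusted p = 0.319).

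Genes that MAP kinase signalling induces had a median of 0.08 over 16 genes, 10 positive and 6 negative. None passed by edgeR (2 at an unadjusted p under 0.05, 1 by DESeq2 and 1 by limma-voom, Fos in both). Fos, an early response transcription factor, stood at 8.67 ± 4.80 and 24.9 ± 10.05 CPM, with a log2 fold change of 1.52 ± 0.34 (SE; edgeR adjusted p = 0.0554), and passed in 9 of 25 alternatives. Etv4 and Egr1, also early targets, had 0.74 ± 0.31 and 0.64 ± 0.36 (edgeR adjusted p = 0.413 and 0.592).

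**Figure D5:**
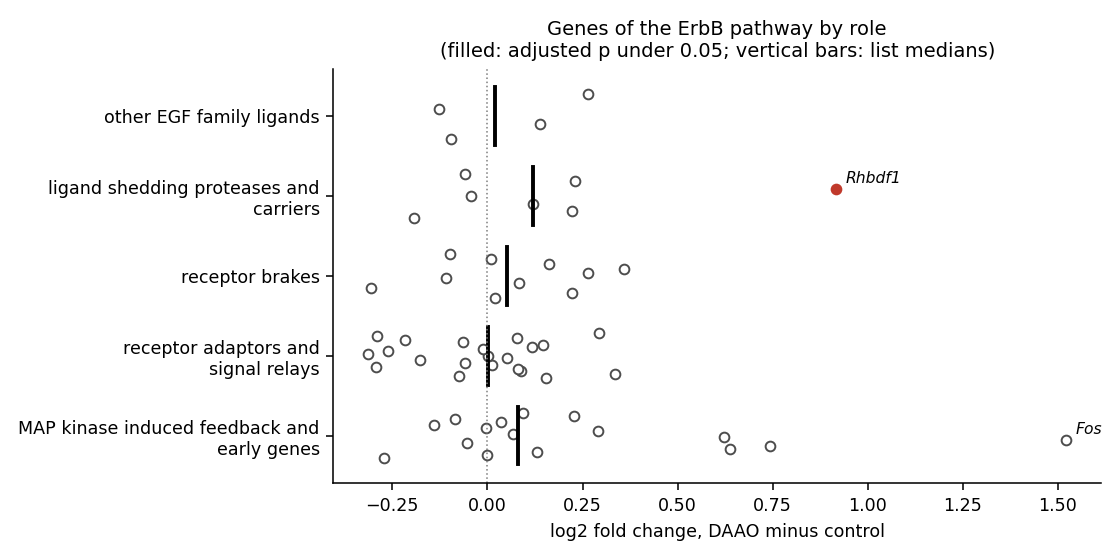
Log2 fold change (DAAO minus control) of the 58 tested pathway genes in 5 lists by role, with list medians as vertical bars; filled points passed an adjusted p under 0.05. Rhbdf1 at 0.92 is the filled point, and Fos at 1.52 lies farthest to the right without passing.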

How the data were processed

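Total RNA of dorsal root ganglia was sequenced as paired reads, per the labels' protocols. The deposited table holds whole-number read counts per gene, not normalised, for 12 libraries, with gene length and position. Per the submitters' processing notes, the builds were GRCm38 and mm10, and the tools DESeq2 1.20.0, FastQC and HISAT2 2.0.5. For the counter, its strand setting and the annotation release the sources used here give nothing. Groups and replicate numbers came from the sample titles.

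Genes passing filterByExpr by group (minimum count 10, minimum total 15) held at least 99.71% of each library's counts. They were scaled with TMM factors and compared as 6 DAAO against 6 control libraries with the robust quasi-likelihood test of edgeR 4.0.16 (R 4.3.3). P-values were two-sided, adjusted by Benjamini-Hochberg over the whole set tested, and called under 0.05. The SE is the absolute log2 fold change over the square root of F. Log2 CPM used a prior count of 2, and list levels are means of centred log2 CPM. The test was tested on simulated data. Alternatives were DESeq2 1.42.0, limma-voom 3.58.1, other scalings and filters, libraries left out, the replicate number as a block and marker levels as terms. Members and lists were chosen with earlier results of these data known; the fit without the 5 libraries with Xist and Y-linked transcripts was added after seeing the data. Named genes are the 10 members, pathway genes that passed with up to 3 others of smallest p per list, marker genes that passed, and the 5 genes most like Btc by each of 2 measures, among genes whose average log2 CPM reached 1 and without unnamed genes or pseudogenes. One gene that this rule names is not reported here. No library pair differed by less than sampling noise (smallest chi-square per degree of freedom 20).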

Additional observations from a re-analysis of the deposited data

Results flagged for a closer look

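In 2 of the member values 1 library lay far from the other 5 of its group by Dixon's criterion at 95%, which chance meets in about 1 of 20 groups. Erbb4 stood at 5.95 CPM in DAAO 2, where the next DAAO library had 2.60. Areg stood at 0.897 CPM in DAAO 3, where the next had 0.257, a value that rests on 16 counts.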

How the results depend on the processing

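Of 200 member values under 25 alternatives, 186 kept direction and side of the threshold, 9 reversed, 4 newly passed and 1 no longer passed. All 9 reversals were of Hbegf, which ran from -0.12 to 0.20 without single libraries, was 0.52 without the 5 libraries with Xist and Y-linked transcripts, and was -0.036 and -0.035 with Schwann lineage and fibroblast levels as terms. Called genes numbered 370 with DESeq2, 295 with limma-voom, 648 without controls 2 and 6, 230 without controls 2, 4 and 6, 207 with the oligodendrocyte level as a term and 4 without the 5 libraries with Xist and Y-linked transcripts. Leaving out 1 library gave 61 to 322, the values over 1.5 times apart being 80 (control 1), 322 (control 2), 77 (control 5), 78 (DAAO 1), 65 (DAAO 2), 73 (DAAO 3) and 61 (DAAO 6). Called members numbered 1 to 2 without single libraries (Nrg1 added without control 2, Erbb2 without DAAO 5), 2 without controls 2 and 6 or 2, 4 and 6, and 0 of 8 by edgeR without the 5 libraries, where 4 had an unadjusted p under 0.05 and fewer samples were fitted. Called pathway genes numbered 3 with DESeq2, 2 with limma-voom, 4 and 2 without controls 2 and 6 or 2, 4 and 6, 2 with oligodendrocyte or Schwann lineage levels, 1 to 2 without single libraries, and 0 of 58 without the 5 libraries (3 unadjusted). Otherwise the cause was not tested. Same-numbered libraries of the groups deviated together in 2 of 6 pairs (correlation from -0.08 to 0.22, over 0.1 in 2), so the numbers were not taken as pairs; 5 of 12 libraries correlated best with their own number. With the replicate block 187 genes, 1 member and 2 pathway genes were called. Genes of few counts, such as Areg, Ereg and Epgn, are limited by depth.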
